A study of Oryza sativa Japonica Group with 12 samples.

Results

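Roots of mock-sprayed rice seedlings were compared between 6 h and 24 h after the spray, a contrast of time alone in plants that received no active compound. It used 6 of the 12 libraries in the series, 3 at each time, chosen by their labels, and 19238 of the 35833 genes in the table, those whose normalised counts averaged 10 or more across these 6 libraries once rescaled together. All plants were the japonica cultivar Nipponbare, with no mutation or transgene in the labels, transplanted 5 days after germination and kept at 28 °C with 12 h of light a day. The mock solution, with Tween 20 at 0.1% as in the active spray, was put on the leaves 13 days after transplanting, and roots of 4 plants were pooled for each sample. The labels give a plant age of 13 days after transplanting at 6 h and 14 days at 24 h. Source names speak of a second treatment and the series title of root-knot nematodes, but neither an earlier spray nor an inoculation of these plants is established by the labels used here. The clock hour of spraying and harvest is not given in the sources used here, so time since the spray, hour of the day and plant age cannot be told apart in this contrast. For comparison, the same contrast was made in the other 6 libraries, from plants sprayed with 300 µM piperonylic acid, an inhibitor of cinnamate 4-hydroxylase in the phenylpropanoid pathway.

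A plant root keeps daily time. In the plant clock, MYB factors of the CCA1 and LHY kind peak around dawn and repress the genes active later in the day, and pseudo-response regulators peak in turn through the day and repress those MYB genes. Transcripts for plasma membrane aquaporins, the water channels of root cells, follow the light and dark cycle in rice roots, and in barley the release of phytosiderophores, which chelate iron in the soil, peaks in the morning. A whole root mixes many cell types, and in such samples fewer cells of a type and less RNA per cell cannot be told apart.

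The 6 libraries held between 6302056 and 10254382 reads, apart from replicate 1 at 24 h with 20301774. On log2 values 59.8% of the variance lay on a first principal component that parted the times, and the second, with 16.9%, set the 2 libraries numbered 2 at its ends, at -32.9 for 6 h and 37.8 for 24 h. Replicate 2 at 24 h stood apart for identifiers listed for defence, with 0.652% of its total on those listed for PR1, PR5 and PR10 proteins against 0.190% and 0.160% in the other 24 h libraries. Identifiers listed as small subunits of Rubisco, a leaf marker, summed to 1065 in replicate 2 at 6 h and 567 in replicate 3 at 24 h, and to between 94.9 and 153 in the other 4 libraries. Os11g0707000, another leaf marker identifier, was also highest in these libraries, at 133 and 102. The 2 leaf marker identifiers listed as Lhcb did not share this pattern. They summed to 583, 700 and 1044 in replicates 1 to 3 at 6 h and to 257, 331 and 624 at 24 h. The 4 tested root marker identifiers were detected in every library and together took 0.408% to 0.663% of its total. Each read of this 3′ assay stands for 1 transcript end, so counts were compared between genes without a length correction. The table does not pair identifiers with names, so groups below carry the intended content of recalled identifiers, which no file could check.

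Of the 19238 genes, 2855 (14.8%) differed between the times by limma at a Benjamini-Hochberg adjusted p of 0.05. At 24 h 1320 of them (6.86%) were higher and 1535 (7.98%) were lower. The larger changes were mostly falls, with 794 genes (4.13%) lower and 370 (1.92%) higher by over 2-fold, and 154 (0.8%) lower and 11 (0.0572%) higher by over 8-fold. The median log2 fold change was 0.74 among genes called higher, -1.03 among those called lower and 0.01 over all genes tested. The 3 libraries of a time did not overlap those of the other in 6399 of all genes (33.3%) and in 2849 of the 2855 called, and 5191 genes (27%) had an unadjusted limma p under 0.05. Without replicate 3 at 6 h the call count was 1857, with 817 higher, and without replicate 1 at 24 h 831 genes were called higher. On the values as deposited, where the times had been scaled separately and the median gene lay 0.30 higher at 24 h on the log2 scale, 7136 genes were called, 6095 higher and 1041 lower, so 14.6% of calls were falls against 53.8% after rescaling.

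The share called grew with the level of a gene. It was 8.11% of the 5768 genes with a mean of 10 to 50, 14.1% between 50 and 200, 19.7% between 200 and 1000, and 27.1% of the 1496 genes over 1000. Falls outnumbered rises in the lowest class, 293 to 175, and the counts were close in the highest, 201 to 205. Over the 12 chromosomes the share called lay between 12.9% and 16.7%.

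Most tested identifiers listed for the clock were called. Of 13 listed identifiers 12 were tested, and by limma 1 was called higher and 8 lower at 24 h, against 6.86% and 7.98% of all genes. The median log2 fold change of the 12 was -0.87, against 0.01 over all genes tested. The 3 libraries of a time did not overlap those of the other for 10 of the 12, against 33.3% of all genes. The untested identifier, Os01g0971800, lay between 4.10 and 9.30 at 6 h and between 0 and 1.32 at 24 h.

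Os08g0157600 was the listed clock identifier that rose, from 242, 323 and 254 normalised counts in replicates 1 to 3 at 6 h to 3845, 3083 and 3657 at 24 h. Every library at 24 h lay far above every library at 6 h. The means of 273 ± 43.6 and 3528 ± 397 (SD, n = 3) differed 12.9-fold, a log2 fold change of 3.69 with a standard error of 0.13 (limma, adjusted p = 2.26e-08).

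All 5 identifiers listed as pseudo-response regulators fell. Their summed level was 2693, 2754 and 2893 at 6 h and 1302, 1032 and 1205 at 24 h, with no overlap between the times. Os02g0618200 had the steepest fall of the 5, from 289, 301 and 300 to 28.1, 39.7 and 36.1, a log2 fold change of -3.04 (standard error 0.15; limma, adjusted p = 2.71e-07). The libraries at 6 h differed little, and those at 24 h all lay far below them, with the means 8.56-fold apart. Os09g0532400 fell from 803, 822 and 958 to 264, 168 and 158, and Os11g0157600 from 198, 193 and 203 to 77.3, 69.2 and 83.4. Their log2 fold changes were -2.15 and -1.35 (limma, adjusted p = 8.23e-05 and 3.29e-05), and the times did not overlap for either. The smallest falls of the group were -1.10 for Os07g0695100 and -0.65 for Os03g0284100 (limma, adjusted p = 0.00132 and 0.00121). Os03g0284100 is the most abundant of the 5, with values from 1187 to 1203 at 6 h and from 677 to 810 at 24 h, so the smallest fall was also seen above a narrow spread.

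Other clock identifiers are listed as parts of the evening complex, which represses clock genes at dusk, as GIGANTEA, and as F-box proteins that sense blue light and mark clock proteins for breakdown. Os11g0547000 fell from 69.5, 94.3 and 89.9 to between 0 and 3.40, a log2 fold change of -4.59 (standard error 0.38; limma, adjusted p = 1.14e-05). It was the largest clock fall, and 1 library at 24 h held no read of it. Os01g0182600 fell from 3430, 4192 and 3904 to 969, 861 and 934, a 4.17-fold difference of the means (log2 fold change -2.05; limma, adjusted p = 3.23e-07). Os01g0566100 was called lower at a log2 fold change of -0.46 (limma, adjusted p = 0.047), with 226 to 320 at 6 h against 189 to 216 at 24 h, and its call was lost without any library other than replicate 1 at 6 h, at log2 fold changes between -0.51 and -0.35. The remaining 3, Os06g0142600, Os02g0150800 and Os06g0694000, had log2 fold changes of 0.63, 0.02 and -0.01 and were not called (limma, adjusted p = 0.2, 0.965 and 0.95). For Os02g0150800 and Os06g0694000 the times overlapped, and the sign changed between settings. The other 7 falls and the rise were called in each of the 6 fits with a library left out.

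**Figure D1:**
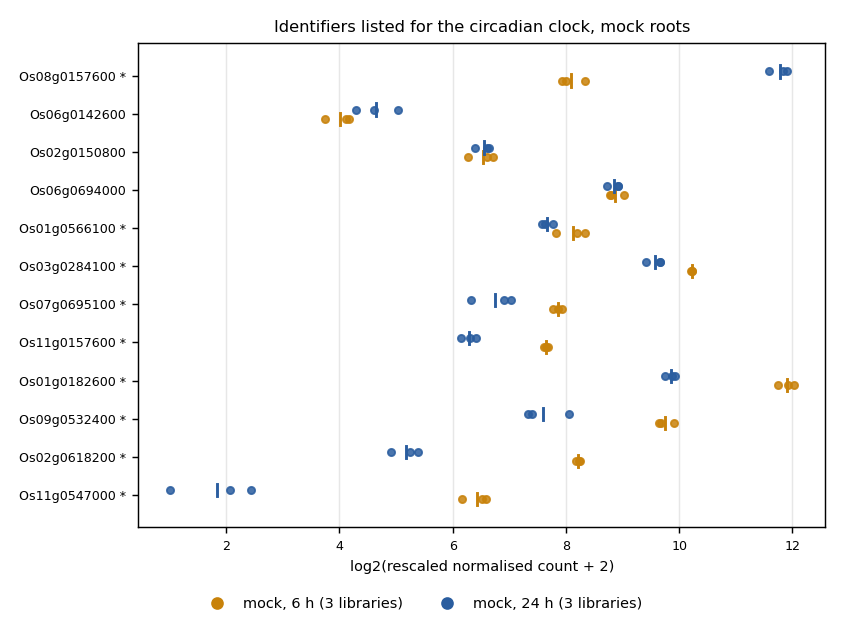
Level of the 12 tested identifiers listed for the circadian clock in each mock library, as log2(rescaled normalised count + 2), at 6 h (orange) and 24 h (blue). Points are libraries, vertical bars are means of the 3, and an asterisk marks a call by limma. Os08g0157600 lies to the right at 24 h, and 8 identifiers lie to the left.

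In the same plants, identifiers listed for DREB factors held the steepest falls of any list. DREB1 factors are transcription factors best known for their induction by cold, and DREB2 factors for drought and heat. Of 8 listed identifiers 6 were tested, and 5 were called lower, against 7.98% of all genes. The median log2 fold change of the 6 was -3.76, against 0.01 over all genes tested, and it ran from -4.48 with DESeq2 to -2.83 with 8 added to each value. The 5 calls held in every fit that left out a library. The summed level of the 6 identifiers listed as DREB1 was 4516, 5713 and 7202 at 6 h and 95.3, 96.4 and 93.7 at 24 h. The 24 h libraries were nearly alike, and the 6 h libraries, spread over a wider range, all lay far above them.

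Os09g0522000 held most of that sum at 6 h. It fell from 2998, 3778 and 4743 to 31.2, 28.4 and 35.3, with means 122-fold apart and a log2 fold change of -6.82 (standard error 0.16; limma, adjusted p = 9.13e-09). Its neighbour Os09g0522200 fell from 1297, 1651 and 2034 to 41.3, 44.2 and 45.6 (log2 fold change -5.16; limma, adjusted p = 9.13e-09). How the authors counted reads that match several close copies is not given in the sources used here, so the split between these neighbours is uncertain. Os02g0677300 fell from 183, 240 and 315 to 22.0, 22.7 and 12.0 (log2 fold change -3.58; limma, adjusted p = 1.16e-05). Os06g0127100 fell from 26.7, 27.7 and 73.4 to between 0 and 1.13 (log2 fold change -3.94; limma, adjusted p = 0.000139). The 2 untested DREB1 identifiers were at 3.08 to 7.24 and at 6.68 to 28.9 at 6 h, and at 0 or 0.439 at 24 h. Thus all 6 were higher at 6 h than at 24 h in every library.

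The pair listed as DREB2 moved less. Os05g0346200 fell from 417, 477 and 432 to 232, 261 and 200 (log2 fold change -0.94; limma, adjusted p = 0.000298), while Os01g0165000 had 208 to 212 at 6 h and 214 to 291 at 24 h and was not called (log2 fold change 0.19; limma, adjusted p = 0.402).

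WRKY factors are plant transcription factors that act mainly in defence and stress responses. Of 13 listed identifiers 12 were tested and all 12 had a negative log2 fold change, with 6 called lower and a median of -1.61, against 7.98% called lower and a median of 0.01 over all genes. Os08g0386200 fell from 658, 735 and 820 to 69.4, 76.0 and 75.7, with no overlap (log2 fold change -3.28; limma, adjusted p = 2.26e-08). Os05g0322900 fell from 765, 891 and 1015 to 396, 303 and 284 (log2 fold change -1.44; limma, adjusted p = 6.12e-05). Os05g0474800 fell from 426, 535 and 826 to 66.8, 113 and 60.2 (log2 fold change -2.86; limma, adjusted p = 0.00325). Os09g0417600 fell from 94.9, 158 and 150 to 66.8, 49.9 and 49.9 (log2 fold change -1.22; limma, adjusted p = 0.00227). In several members, called or not, replicate 2 at 24 h was the highest of its group. For Os06g0649000 it held 582, within the 6 h range of 545 to 1083, while the other 24 h libraries held 121 and 102 (log2 fold change -2.04; limma, adjusted p = 0.218). Without that library 9 identifiers were called lower, and without replicate 2 or 3 at 6 h, or replicate 1 or 3 at 24 h, 4 were.

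Identifiers listed as JAZ repressors, which hold back jasmonate signalling and are themselves induced by jasmonate, were less uniform. Of 12 tested, 2 were called lower, against 7.98% of all genes, 7 had negative and 5 positive changes, and the median log2 fold change was -0.73. It was -1.26 without replicate 2 at 24 h, -0.39 without replicate 1 and -0.46 without replicate 3 at 24 h. Os03g0181100 fell from 3101, 4309 and 5444 to 218, 752 and 223 (log2 fold change -3.64, standard error 0.61; limma, adjusted p = 0.0262). The times did not overlap, and again replicate 2 at 24 h was the highest of its group. Without this library 7 of the 12 were called lower. Without replicate 1 at 6 h 1 was, and without replicate 2 or 3 at 6 h or replicate 1 or 3 at 24 h none was. With edgeR on recovered reads 4 were called lower and with DESeq2 5, and at an unadjusted limma p under 0.05 5 were lower and 1 higher. Os10g0391400 had the most negative value of the list, from 499, 745 and 1077 at 6 h to 13.2, 212 and 19.8 at 24 h, and was not called (log2 fold change -4.16, standard error 1.20; limma, adjusted p = 0.112).

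**Figure D2:**
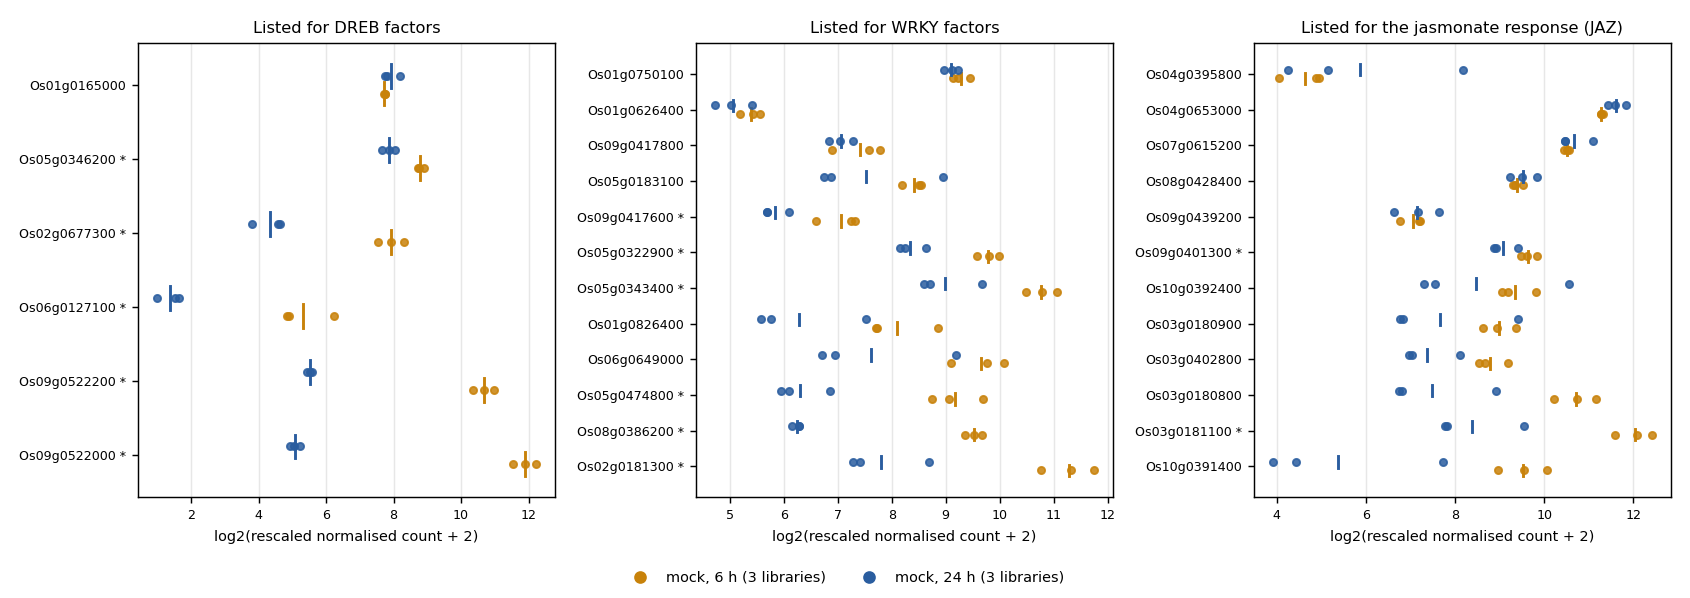
Levels of tested identifiers listed for DREB factors, WRKY factors and the JAZ repressors of the jasmonate response in each mock library, as log2(rescaled normalised count + 2), at 6 h (orange) and 24 h (blue). Points are libraries, vertical bars are means of the 3, and an asterisk marks a call by limma. In many WRKY and JAZ rows 1 of the 24 h points, replicate 2, lies well to the right of the other 2.

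Enzymes of abscisic acid turnover gave 2 falls, the 2 members called lower of 9 tested in their list, against 7.98% of all genes. The median log2 fold change of the list was -0.27, against 0.01 over all genes tested. The sign of this median changed between settings. Os02g0703600 fell from 610, 851 and 1015 to 141, 121 and 111, with means 6.64-fold apart (log2 fold change -2.69; limma, adjusted p = 9.99e-06). Os07g0154100 fell from 37.4, 64.6 and 86.8 to 15.4, 26.1 and 15.5 (log2 fold change -1.59; limma, adjusted p = 0.00648), a call that was lost when all 12 libraries entered the fit. Abscisic acid is the main drought hormone, and the 2 enzyme families listed make it and break it down. The 5 tested identifiers listed as dehydrins or other proteins that accumulate in drying tissue had log2 fold changes between -1.28 and 1.30. They were not called. Without replicate 2 or without replicate 3 at 24 h, 1 identifier of this list was called higher. Os01g0348900, the most abundant of the 5, is not listed as a dehydrin. It held 5625, 4144 and 6038 at 6 h and 10810, 12780 and 3828 at 24 h, so the times overlapped through replicate 3 at 24 h.

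Type-A response regulators, which damp cytokinin signalling, included 2 falls among 6 tested identifiers, against 7.98% of all genes called lower, with a median log2 fold change of -0.64. Os04g0673300 fell from 178, 180 and 164 to 59.7, 53.3 and 77.4 (log2 fold change -1.44; limma, adjusted p = 8.97e-05). Os11g0143300 fell from 148, 149 and 147 to 96.2, 71.4 and 73.1 (log2 fold change -0.88; limma, adjusted p = 0.00197). Neither gene's times overlapped. Of the 4 identifiers listed for dividing cells 1 was called lower by the same test, Os08g0512600, with 170 to 187 at 6 h and 117 to 141 at 24 h (log2 fold change -0.47; limma, adjusted p = 0.0282). Its call was lost without any library other than replicate 1 at 24 h, at log2 fold changes between -0.49 and -0.41.

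Most identifiers listed as water channels of the plasma membrane rose. PIP proteins let water cross the membranes of root cells and fall into the subgroups PIP1 and PIP2, of which PIP2 channels carry more water when expressed alone. Of 11 listed identifiers, all tested, 8 were called higher by limma, against 6.86% of all genes, and the median log2 fold change was 1.01. The 8 calls held in each fit that left out a library. Together the 11 identifiers took 0.798 ± 0.0783% of the library total at 6 h and 2.09 ± 0.296% at 24 h (SD, n = 3).

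All 3 identifiers listed as PIP1 rose. Os02g0823100 was the most abundant of them at both times and rose from 17770, 23130 and 17800 to 68450, 55660 and 69920, 3.31-fold by the means (log2 fold change 1.73, standard error 0.14; limma, adjusted p = 8.09e-06). The lowest library at 24 h lay far above the highest at 6 h. Os04g0559700 rose 2.09-fold, from 17030, 19700 and 16980 to 38490, 32370 and 41340 (limma, adjusted p = 0.000123). Os02g0666200 rose 1.84-fold, from 8047 to 9625 at 6 h to 14060 to 18170 at 24 h (limma, adjusted p = 0.000609).

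Of the 8 identifiers listed as PIP2 5 rose. Os04g0521100 rose from 7199, 9199 and 6546 to 37710, 28570 and 38130, 4.55-fold by the means (log2 fold change 2.19; limma, adjusted p = 5.18e-06). Os07g0448100 rose 7.62-fold, from 1250, 1368 and 902 to 9763, 7076 and 9977 (log2 fold change 2.93; limma, adjusted p = 1.54e-05). Os07g0448200, next to it on the chromosome, rose from 4.01, 1.03 and 3.10 to 71.2, 59.0 and 75.7 (log2 fold change 3.96; limma, adjusted p = 1.11e-05). In each case the times were far apart, although Os07g0448200 held only a few reads at 6 h and a small part of its neighbour's level at 24 h, so reads of a close copy could not be told from its own. Os07g0448800 in the same cluster rose 2.00-fold and Os02g0629200 1.77-fold (limma, adjusted p = 0.000355 and 0.00163). From Os07g0448100 to Os07g0448800, 4 tested genes in a row were called higher, 1 of 33 runs of at least 3 neighbouring tested genes called in the same direction. The 3 PIP2 identifiers that were not called were Os04g0233400, abundant at 3450 to 4469 in all 6 libraries (log2 fold change 0.14; limma, adjusted p = 0.503), and Os09g0541000 and Os03g0861300, at most 44.1 (log2 fold changes -0.86 and -0.98; limma, adjusted p = 0.415 and 0.229). The rise therefore did not extend to every listed PIP2 identifier.

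Tonoplast aquaporins, which line the vacuole, moved in both directions, with 3 called higher and 1 lower of 5, against 6.86% and 7.98% of all genes. Os03g0146100 rose from 9159, 10590 and 7910 to 21270, 16870 and 22650 (log2 fold change 1.13; limma, adjusted p = 0.000234). Os05g0231700 fell from 1659, 1609 and 2118 to 623, 905 and 562 (log2 fold change -1.38; limma, adjusted p = 0.00149). Both calls held without any single library, and the rises of Os01g0975900 and Os02g0658100 did not, since only 1 identifier was called higher without replicate 1 or 3 at 6 h or replicate 1 or 3 at 24 h.

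Identifiers listed for the iron deficiency response had 10 tested members with log2 fold changes between 0.03 and 1.15 and a median of 0.61. By limma 7 were called higher, against 6.86% of all genes, and between 5 and 7 in the fits with a library left out. Grasses take up iron by making nicotianamine and mugineic acids, releasing the latter and importing the iron complexes. All 5 identifiers listed for phytosiderophore synthesis and efflux rose, and their summed level went from 80590, 87100 and 77140 to 138300, 109300 and 160400. The lowest 24 h sum, in replicate 2, still lay above the highest at 6 h. Os11g0134900 had the largest rise, from 4587, 4939 and 4225 to 10850, 8007 and 12040, 2.25-fold by the means (log2 fold change 1.15, standard error 0.15; limma, adjusted p = 0.000306). Os03g0307200 and Os03g0307300, adjacent and among the most abundant genes named here, rose by log2 fold changes of 0.72 and 0.66 (limma, adjusted p = 0.00492 and 0.0111). Os02g0306401 rose from 6309, 6624 and 6603 to 11510, 8978 and 12070 (log2 fold change 0.73; limma, adjusted p = 0.00189). Os03g0307200 held 41580, 43310 and 39000 at 6 h and 69540, 55300 and 82130 at 24 h.

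Of 3 tested identifiers listed as importers Os03g0667300 was called higher, at 66.8, 61.5 and 68.2 against 101, 116 and 116 (log2 fold change 0.74; limma, adjusted p = 0.00518). Os02g0650300 and Os03g0667500 were abundant, at 12930 to 29210, and were not called (log2 fold changes 0.16 and 0.15; limma, adjusted p = 0.447 and 0.521). Of the 2 iron-responsive transcription factors listed, Os03g0379300 rose from 622, 722 and 573 to 944, 890 and 988 (log2 fold change 0.56; limma, adjusted p = 0.00494), and Os01g0952800 was not called (log2 fold change 0.03; limma, adjusted p = 0.908).

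**Figure D3:**
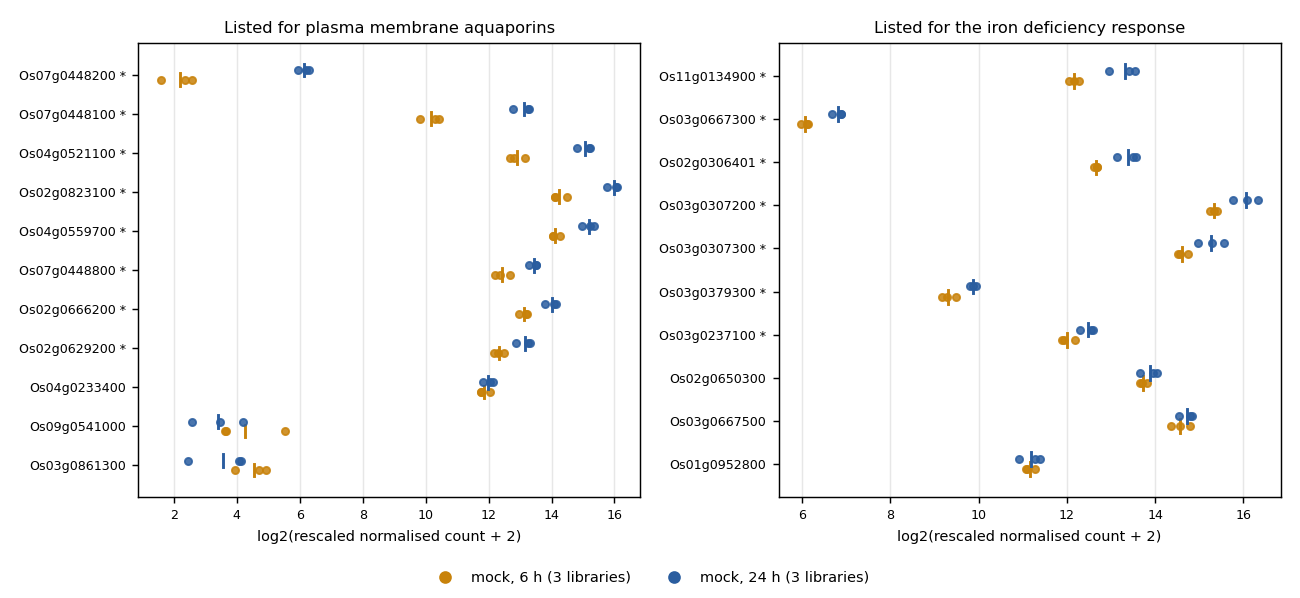
Levels of tested identifiers listed for plasma membrane aquaporins (left) and the iron deficiency response (right) in each mock library, as log2(rescaled normalised count + 2), at 6 h (orange) and 24 h (blue). Points are libraries, vertical bars are means of the 3, and an asterisk marks a call by limma. The 8 called aquaporins span a wider range of rises than the 7 called iron identifiers, whose log2 fold changes lie between 0.48 and 1.15.

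Nitrate genes did not move together. Of 9 tested identifiers for nitrate uptake and reduction 3 were called higher and 2 lower, against 6.86% and 7.98% of all genes, with a median log2 fold change of 0.04. Os08g0155400 rose from 1490, 2065 and 2131 to 4072, 4936 and 3483 (log2 fold change 1.14; limma, adjusted p = 0.00147). Os02g0770800, listed with the reductases that turn nitrate into ammonium, fell from 476, 611 and 629 to 342, 339 and 392 (log2 fold change -0.67; limma, adjusted p = 0.00405). The times did not overlap for either. Without replicate 3 at 6 h, or replicate 1 or 3 at 24 h, and with edgeR, 1 identifier was called higher. Without replicate 3 at 6 h, or replicate 1 or 2 at 24 h, 1 was called lower, and with edgeR 4.

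Ammonium, phosphate and silicon lists each held 1 member called higher, and the first pair also 1 called lower, of 6, 7 and 3 tested, against 6.86% and 7.98% of all genes. The largest of these 5 changes was -0.86 for Os02g0620500, an identifier of the ammonium list with 29.4 to 35.2 at 6 h and 16.3 to 18.1 at 24 h (limma, adjusted p = 0.0284). Its call was lost without any library other than replicate 1 at 6 h. All 5 calls were lost without replicate 3 at 6 h, and leaving out any of the 6 libraries moved at least 1 of these counts, to between 0 and 2. The 3 tested identifiers of the 4 listed for sucrose cleavage and transport, and the 3 of 4 for the response to sugar starvation, gave 0 calls by limma. At an unadjusted limma p under 0.05 the sucrose list had 1 lower and the starvation list 0. DESeq2 called 1 sucrose identifier lower and edgeR 0, and both called 0 of the starvation list. The sucrose list took 0.410 ± 0.011% of the total at 6 h and 0.372 ± 0.00762% at 24 h.

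The list for fermentation and low oxygen had 5 tested identifiers with positive changes, of which 2 were called higher, against 6.86% of all genes. Most are listed as enzymes of fermentation, which regenerates oxidised cofactor without respiration. Os03g0293500 rose from 381, 391 and 395 to 540, 582 and 546 (log2 fold change 0.51; limma, adjusted p = 0.00332), with narrow spreads at both times. The other call, Os11g0210500, was lost without replicate 1 or 3 at 6 h or replicate 1 or 2 at 24 h, and 1 or 2 members were called in each of the 6 fits with a library left out.

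The phenylpropanoid pathway starts with phenylalanine ammonia-lyase (PAL), cinnamate 4-hydroxylase and 4-coumarate-CoA ligase, and leads to lignin and many phenolics. Of 13 tested identifiers 3 were called higher and 1 lower, against 6.86% and 7.98% of all genes. The list's share of the total was 0.488%, 0.531% and 0.506% at 6 h and 0.688%, 0.787% and 0.749% at 24 h. Os02g0626100, listed as PAL, made up most of this, with 32630, 39350 and 34640 at 6 h and 51030, 55220 and 52580 at 24 h (log2 fold change 0.58; limma, adjusted p = 0.00398). Os05g0320700, 1 of 2 tested identifiers for the hydroxylase, rose from 708, 912 and 875 to 1502, 2508 and 1774 (log2 fold change 1.19; limma, adjusted p = 0.00376). Both had no overlap between the times. Os02g0626600, also listed as PAL, fell from 45.5, 47.2 and 73.4 to 9.22, 28.4 and 6.88 (log2 fold change -1.95; limma, adjusted p = 0.0209), a call lost without any library other than replicate 2 at 24 h, at log2 fold changes between -2.08 and -1.60. Without that library 3 members were called lower.

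Lists for defence products held 0 calls by limma, against 14.8% of all genes. A list of 5 members is too short for 0 calls to set it apart from that share. Diterpenoid phytoalexins are antimicrobial compounds of rice. All 15 tested identifiers for their synthesis had positive log2 fold changes, with a median of 1.01, yet 0 were called by limma. At an unadjusted limma p under 0.05 1 was higher, against 27% of all genes in either direction. With edgeR 0 were called and with DESeq2 1, and without replicate 3 at 6 h limma called 1. The summed share of the list was 0.0152%, 0.0161% and 0.0253% at 6 h and 0.0153%, 0.101% and 0.0155% at 24 h. Only replicate 2 at 24 h was high in this sum, and the other 24 h libraries lay within the range at 6 h. Without that library the median was 0.20, and without any other library it lay between 0.91 and 1.46. Os04g0179700 held 18.7, 11.3 and 17.6 at 6 h and 8.35, 268 and 39.6 at 24 h. The 5 tested identifiers for PR1, PR5 and PR10 proteins had a median of 1.13 and 0 calls by limma, edgeR and DESeq2, with 0 at an unadjusted limma p under 0.05. Their median was 0.65 without replicate 2 at 24 h and 0.26 without both libraries numbered 2. Chitinases, which attack fungal walls, had a median of -0.17, which ran from -0.49 without replicate 2 at 24 h to 0.24 without replicate 3 at 24 h and was also above 0 without replicate 1 at 6 h (0.22) or at 24 h (0.15). They had 0 calls by limma, edgeR and DESeq2 among 5 tested, with 0 at an unadjusted limma p under 0.05, and without replicate 2 at 24 h 1 was called lower.

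The heat shock list holds chaperones, which keep other proteins folded, and the transcription factors that induce them. Of 9 tested identifiers 3 were called higher, 1 of them listed as a factor, and 1 lower, against 6.86% and 7.98% of all genes, with a median of 0.04. Os03g0276500 rose from 3177, 3988 and 3290 to 5037, 6778 and 5381 (log2 fold change 0.71; limma, adjusted p = 0.00393). Os03g0266300 rose from 476, 460 and 442 to 1222, 819 and 700 (log2 fold change 0.95; limma, adjusted p = 0.00961), a call lost without replicate 3 at 6 h, at 0.92. Os01g0136200 fell from 13.4, 26.7 and 27.9 to 2.64, 4.54 and 1.72 (log2 fold change -2.29; limma, adjusted p = 0.00302), and without replicate 2 at 24 h 2 were called lower. Os11g0703900, by far the most abundant of the list, had 44890 to 48130 at 6 h and 36910 to 37400 at 24 h and just missed the threshold of 0.05 (log2 fold change -0.32; limma, adjusted p = 0.0505).

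Leaf and root markers had 0 calls by limma among 7 and 4 tested identifiers, against 14.8% of all genes. In lists this short, 0 calls do not show that the markers were stable. At an unadjusted limma p under 0.05 they had 0 and 2, against 27% of all genes. With edgeR 0 and 1 were called, and with DESeq2 1 and 2. All of these were lower. Without replicate 3 at 24 h limma called 2 and 1 lower. Summed leaf markers took 0.00808% to 0.0211% of the total at 6 h and 0.00440% to 0.0147% at 24 h, so the ranges overlapped. Of 6 flowering regulators listed, which act mainly in leaves, 1 passed the level filter and was not called (log2 fold change 0.31; limma, adjusted p = 0.556), and 3 had no read in any of the 6 libraries.

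**Figure D4:**
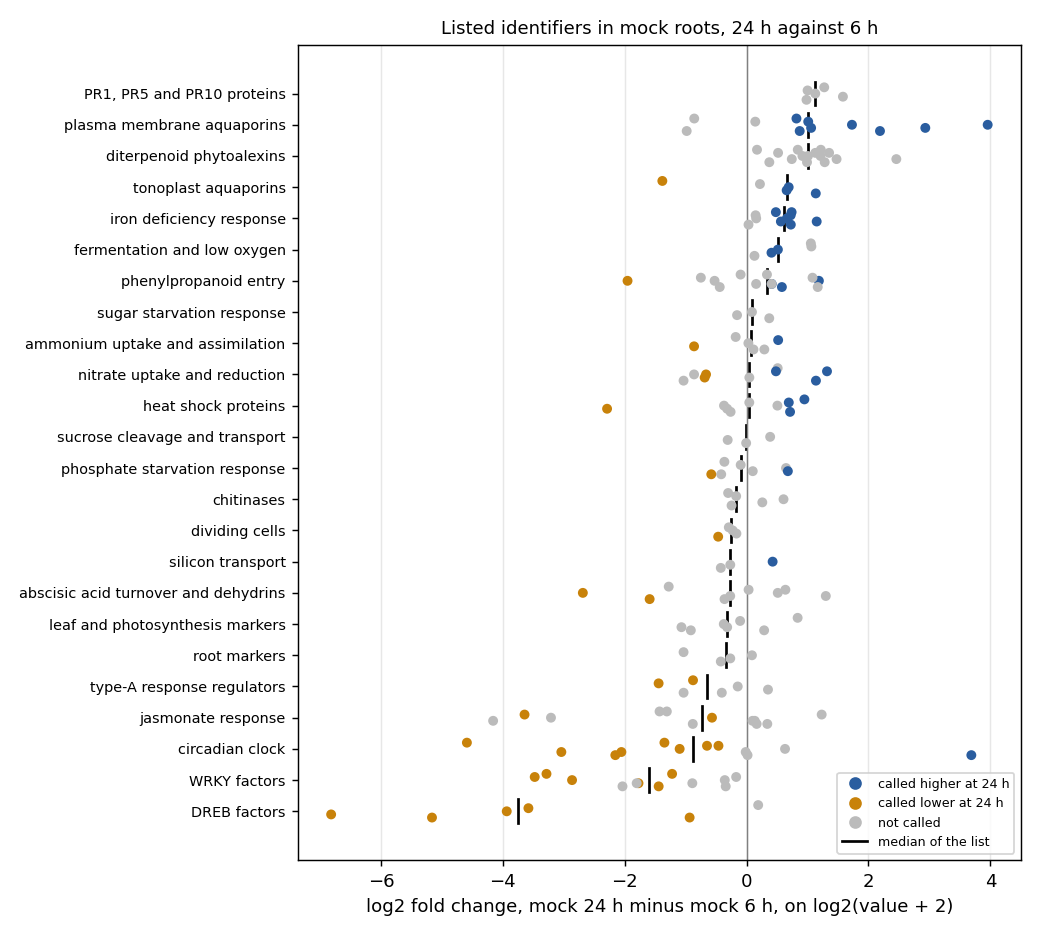
Log2 fold change between 24 h and 6 h of each tested identifier in 24 lists, ordered by their medians (black bars). Blue points were called higher, orange points lower and grey points not called by limma. The DREB, WRKY and clock lists lie at the bottom. Near the top the diterpenoid and PR lists hold grey points only, and the plasma membrane aquaporin list between them holds 8 blue points.

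Outside the lists, the largest called rise and falls with separate times are given by identifier alone. Os01g0281100 rose from 5.35, 6.15 and 1.03 to 181, 130 and 163 (log2 fold change 4.81; limma, adjusted p = 1.06e-05), the largest rise of all genes tested, and the next was the aquaporin identifier Os07g0448200. Os09g0457900 fell from 869, 1131 and 1816 to 4.39, 1.13 and 0.860 (log2 fold change -8.30; limma, adjusted p = 1.46e-05). Os08g0474000 fell from 227, 296 and 565 to between 0 and 2.27 (log2 fold change -6.94; limma, adjusted p = 2.58e-06). Since 2 was added to each value before the log, folds of such low levels are understated.

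The plants sprayed with piperonylic acid give the same interval in 6 libraries that the mock contrast does not use. There 2578 of 19063 genes (13.5%) were called by limma, 1291 higher (6.77%) and 1287 lower (6.75%). Of the 2855 mock calls 2815 were tested in treated roots, 2610 of these (92.7%) had the same sign, 1396 were called in the same direction and 16 in the opposite direction. The 1396 were 48.9% of the mock calls and 54.2% of the treated calls. Genes called higher in mock roots had a median log2 fold change of 0.74 there and 0.50 in treated roots, and genes called lower had -1.01 and -0.70. Of the rises 53.6% were called the same way, and of the falls 46.1%. These genes were chosen by their mock values, so the medians of the 2 sprays are not measured alike.

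The medians of the clock, aquaporin and iron lists had the same sign under both sprays. Os08g0157600 had a log2 fold change of 3.70 in treated roots beside 3.69 in mock roots, with 294, 299 and 317 at 6 h and 3794, 4175 and 3927 at 24 h. In treated roots 1 clock identifier was called higher and 8 lower, with a list median of -0.96 beside -0.87. The aquaporin list had a median of 1.09 beside 1.01, with 9 called higher and 1 lower, Os03g0861300 (log2 fold change -1.50; limma, adjusted p = 0.00868). The iron list had 0.46 beside 0.61, with 6 called higher. Of all genes tested in treated roots 6.77% were called higher and 6.75% lower. The summed level of the pseudo-response regulators was 2697, 2555 and 2767 at 6 h and 1085, 1136 and 1190 at 24 h.

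The DREB1 sum differed more between the sprays. In treated roots it was 563, 943 and 3320 at 6 h and 115, 187 and 150 at 24 h, so the times still did not overlap, but the 6 h libraries lay below all mock libraries of that time. Os09g0522000 held 383, 677 and 2271 at 6 h and 71.2, 121 and 91.9 at 24 h, a log2 fold change of -3.15 that was not called (standard error 0.77; limma, adjusted p = 0.0785). The difference between the mock and treated changes was -3.67 on the log2 scale and did not pass its own test (limma interaction, adjusted p = 0.116). Os08g0386200 of the WRKY list had -1.47 in treated roots beside -3.28, a difference of -1.82 (limma interaction, adjusted p = 0.123). The WRKY list had a negative median under both sprays, -1.22 in treated roots beside -1.61 in mock roots. In treated roots 5 of its 12 tested identifiers were called lower, against 6.75% of all genes, beside 6 of 12 in mock roots. None of the 5 mock falls of the DREB list except Os05g0346200, at -0.76 (limma, adjusted p = 0.000384), was called in treated roots, and Os06g0127100 was not tested there.

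By the interaction test, the time difference itself differed between the sprays in 104 of 19189 genes (0.542%), 64 with a more positive change in mock roots (0.334%) and 40 with a more negative one (0.208%). Without replicate 3 of the treated plants at 6 h the count was 482, and in the other fits with a library left out it ran down to 36, without treated replicate 2 at 24 h. Counts fell over 1.5-fold also without mock replicate 2 or 3 at 6 h, mock replicate 1 or 3 at 24 h, treated replicate 1 or 2 at 6 h, or treated replicate 1 or 3 at 24 h, to between 42 and 64. Of the mock calls 2844 were in this fit, and 80 of them had a called difference, 52 of them rises and 28 falls in mock roots. Among all list members tested the difference was called for 1, Os03g0161900 of the heat shock list. It held 53.5, 58.4 and 62.0 at 6 h and 99.7, 104 and 81.7 at 24 h in mock roots, and 29.2, 42.6 and 39.2 and then 151, 184 and 235 in treated roots. The log2 fold changes were 0.69 and 2.29 (limma, adjusted p = 0.0144 and 7.3e-06), and the call in mock roots was lost without mock replicate 1 at 24 h.

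**Figure D5:**
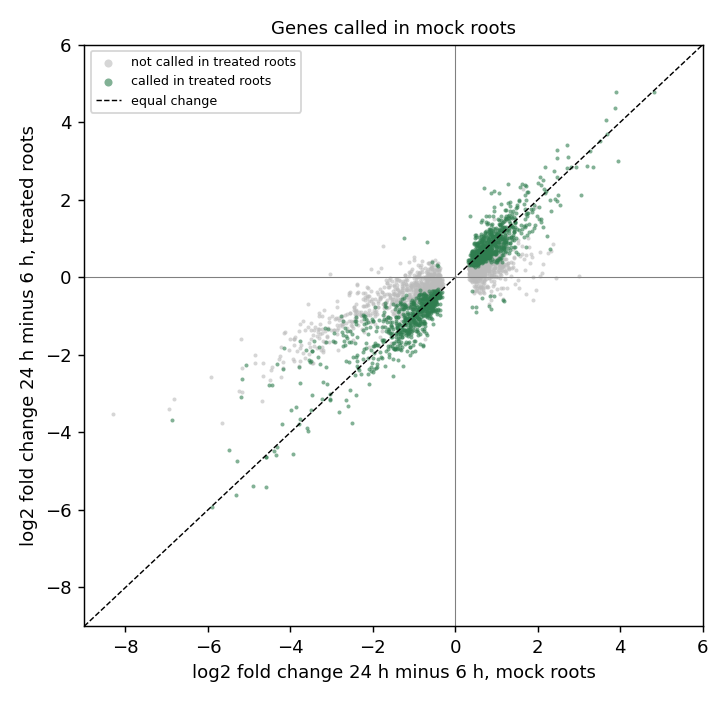
Log2 fold change between 24 h and 6 h in mock roots (horizontal axis) and in treated roots (vertical axis) for the genes called in mock roots and tested in both. Green points were also called in treated roots, grey points were not, and the dashed line marks equal change. Most of the 2815 points share a sign, and the steepest mock falls include many grey points above the line.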

How the data were processed

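Polyadenylated root RNA was sequenced from its 3′ ends with the QuantSeq kit from 2 µg of RNA per sample, per the labels' protocols. Per the submitters' processing notes, the tools included STAR 2.6.1d, Trimmomatic 0.38, FastQC 0.11.8 and DESeq2. No source used here names the counter or the build. The deposited table gives, per gene and library, a normalised signal that the values show to be read counts over a size factor, set separately at each time. In each mock column at least 99.985% of values above 0 were whole multiples of 1 read within 0.01, so reads could be recovered.

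The 6 mock columns were rescaled together by median-of-ratios factors, which differed 1.23-fold between the times. Genes with a rescaled mean of at least 10 were taken as log2(value + 2) and fitted with limma 3.58.1 (trend, robust) in R 4.3.3, with Benjamini-Hochberg adjustment over all 19238 genes at 0.05. Treated roots were fitted alone in the same way, and the interaction on all 12 libraries. Beyond pools of separate plants the labels state nothing on cultures or days, and a p-value here covers the spread between these samples only. edgeR 4.0.16 and DESeq2 1.42.0 on recovered reads, other scalings, filters and added constants, a replicate block and leaving out each library were alternatives. Only the limma fit of the mock contrast was checked on simulated data. Counts of replicates differed beyond sampling noise (chi-square per degree of freedom 5.87 to 24.5).

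The reference table matched 1 of the 35833 identifiers, so no single identifier is given a name; list names are the intended content of recalled identifiers. The rule for naming took all tested clock members, up to 4 called members of each other list by adjusted p, and the 2 largest rises and falls, not all of which are printed; other list members named were chosen after their values were seen. The members and lists were chosen with earlier results of these data known, and no list was tested as a set.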

Additional observations from a re-analysis of the deposited data

Results flagged for a closer look

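Os03g0161900, an identifier of the heat shock list, had a time difference that differed between mock and treated roots by -1.61 on the log2 scale (limma interaction, adjusted p = 0.0117), with 0.69 in mock roots and 2.29 in treated roots. All 3 libraries at 24 h lay above all 3 at 6 h under both sprays.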

How the results depend on the processing

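Directions of the aquaporin, iron, DREB, WRKY and clock medians were the same under all alternatives run, and for other results the cause of a move was not tested. On the values as deposited 7136 genes were called, 6095 of them higher and 883 higher by over 2-fold, and medians were -0.58 (clock), 1.30 (plasma membrane aquaporins), 0.95 (tonoplast aquaporins), 0.34 (nitrate), 0.36 (ammonium), 0.90 (iron), 0.29 (sucrose), 0.52 (heat shock), -0.36 (response regulators) and -0.053 (root markers), with a change of sign for phosphate (0.19), silicon (0.024), abscisic acid (0.011), dividing cells (0.030) and Os06g0694000 (0.28). With no level filter medians were -1.10 (clock), -3.23 (DREB) and -0.28 (response regulators), and with a mean of at least 50 they were -0.31 (nitrate, reversed), 0.51 (abscisic acid, reversed), 0.60 (heat shock) and -0.41 (response regulators). Array weights gave -0.80 (clock) and reversed abscisic acid (0.054), heat shock (-0.32), Os02g0150800 (-0.038) and Os06g0694000 (0.038). Adding 0.5 or 8 gave DREB medians of -4.45 and -2.83, and 8 reversed heat shock (-0.19). edgeR gave -4.48 (DREB), -0.33 (heat shock, reversed) and -0.0066 (Os02g0150800, reversed), and DESeq2 -4.48, -0.33 and -0.0037. Leaving out both mock libraries numbered 2, chosen after seeing the data, gave -0.70 (clock), 0.94 (tonoplast aquaporins), 0.28 (nitrate), -0.039 (silicon), -0.28 (sugar starvation), 0.26 (PR proteins), -0.82 (chitinases), -4.00 (DREB), 0.081 (abscisic acid, reversed), -0.16 (heat shock, reversed) and 0.015 (Os06g0694000, reversed). With each library left out in turn, calls ran from 1857 to 2797, calls higher from 817 to 1233, treated calls from 1641 (without treated replicate 2 at 24 h) to 2340 and interaction calls from 36 to 482. Medians then ran from -0.96 to -0.72 (clock), 0.52 to 0.82 (tonoplast aquaporins), -0.095 to 0.17 (nitrate), -5e-04 to 0.12 (ammonium), -3.99 to -3.45 (DREB), -0.60 to 0.057 (abscisic acid) and -0.25 to 0.67 (heat shock), and log2 fold changes from -0.12 to 0.11 (Os02g0150800) and -0.056 to 0.061 (Os06g0694000). Same-numbered mock libraries showed no sign of shared deviations, which correlated at 0.00282, -0.201 and -0.248, and others at -0.0656 to 0.245. With 3 libraries per time, these correlations cannot tell whether same-numbered samples were grown or handled together. A fit with a replicate block called 2203 genes, 964 higher and 1239 lower. Depth limits genes of few reads, and 10866 genes with a read in a mock library fell under the level filter.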

Other observations

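The directions of neighbouring called genes were counted. Of 19226 pairs of tested genes adjacent in identifier order on a chromosome, 485 had both members called. The direction was the same in 313 of these (64.5%). Over all genes tested 14.8% were called, and 53.8% of the calls were falls. The share to be met among unrelated neighbours was not computed, and a link between neighbours was not tested. The longest run held 5 genes, from Os02g0584700 to Os02g0585200, all lower at 24 h.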
